A study of Homo sapiens with 18 samples.

Results

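The genes described here belong to the STAT and IRF transcription factors and the sensors of foreign nucleic acid, and their levels were followed after overexpression of TBX2, TBX3, TBX4 or TBX5 in lung cancer cells. The 9 genes were TLR3, IFIH1, DHX58, MAVS, IRF3, IRF7, IRF1, STAT2 and IRF9, out of 63677 genes in the count table. They were chosen by name, with earlier results of these data known, and which measured values led to the choice is not recorded. Every comparison below was therefore treated as used in the choice, and the changes of the 9 genes and whether they passed the test are a description of the fit over all genes, not independent evidence. All 9 were found by their Ensembl identifiers, and 8 passed the filter on low counts (more than 5 counts in more than 9 of the 18 libraries), together with 15576 genes in all. DHX58 did not pass it.

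RNA-seq was done on 18 libraries of NCI-H1299, a human cell line labelled as lung adenocarcinoma, in 6 groups of 3. The TBX2 and TBX4 groups received pORF plasmids with the human genes and a Flag tag. The TBX3 group received human TBX3 and the TBX5 group mouse Tbx5, both with an HA tag in pCGN. The EV group received the empty vector, whose backbone is not given in the sources used here, and the sixth group is labelled Ctl, with no treatment named. Transfection was transient, with Lipofectamine, and only part of the cells took up the plasmid, so that each level is an average over transfected and untransfected cells. The time of harvest was not given in the sources used here, and neither was whether the replicates a, b and c were separate cultures, so that the errors measure the spread between these libraries, which may be technical.

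Double-stranded RNA is sensed in endosomes by TLR3 and in the cytosol by MDA5, the product of IFIH1, which signals through the mitochondrial adaptor MAVS. DHX58 encodes LGP2, a related helicase that tunes the cytosolic sensors. These routes activate IRF3 and IRF7, which switch on interferon genes. Interferon then acts on its receptors and JAK kinases to form ISGF3, a complex that contains STAT2 and IRF9 and binds the interferon-stimulated response element (ISRE) and raises antiviral genes, IFIH1, IRF7 and IRF9 among them. IRF1 is induced through gamma-activated sites (GAS), which STAT dimers bind, and activates many of the same genes.

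The libraries held 7365221 to 11743179 counts, and 3 counts, taken as the smallest detectable level, equalled 0.191 to 0.595 CPM (read counts scaled to a common library size after TMM, the unit of all levels below). A gene without a symbol, ENSG00000266658, took 10.7% to 53.5% of the counts of a library, with its highest shares in TBX5 replicates b and c. Each targeted gene was high in its own group. TBX2 stood at 4468 ± 368 CPM in the TBX2 libraries, TBX3 at 21910 ± 3874 in the TBX3 libraries and TBX4 at 7976 ± 483 in the TBX4 libraries (SD, n = 3 each). Reads on human TBX5 stood at 200.6 ± 62.4 CPM with TBX5, where the plasmid carries the mouse gene. The library with the number of the TBX4 group, replicate c, ends in TBX5 in its title, and it was kept with TBX4 by that number. The 3 libraries of the TBX4 group, this one included, held 7543 to 8497 CPM of TBX4, against 1.22 to 3.57 in the TBX5 libraries. They held at most 1 count of TBX5, against 1161 to 1302 in the TBX5 libraries. KRT8, KRT18 and VIM had at least 119 counts in every library, whereas the epithelial and lung markers KRT19, EPCAM, CDH1 and NKX2-1 had at most 4. The 9 matched markers of blood cells and fibroblasts had at most 12 counts.

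TBX2 up-regulated 5 of the 8 tested genes over EV, namely IRF9, IRF7, IFIH1, IRF1 and STAT2, beside 14.7% of all tested genes. The largest change was that of IRF9, whose fitted fold was 9.11, followed by IRF7 at 3.68-fold and IFIH1 at 2.32-fold. TBX3, TBX4 and TBX5 gave fewer and smaller changes, in STAT2 for TBX3, in IRF3 for TBX4 and in both for TBX5. Of all tested genes, 5.78%, 3.83% and 5.26% were higher over EV with TBX3, TBX4 and TBX5. No member passed the test in EV against Ctl, where 0.135% of all tested genes were higher and 0.0514% lower. These groups of genes are described in the order of the pathway, from the sensors to the STAT and IRF factors that act last. Where libraries of a TBX group are said to lie apart from EV or Ctl, many other genes do so too. In each such comparison, 11.8% to 18.3% of all genes had all TBX libraries higher and 11.5% to 17.7% all lower. The share of all genes with the TBX2 libraries apart from all 15 others was not counted. Nor was the share with a TBX group apart from EV and Ctl together.

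**Figure D1:**
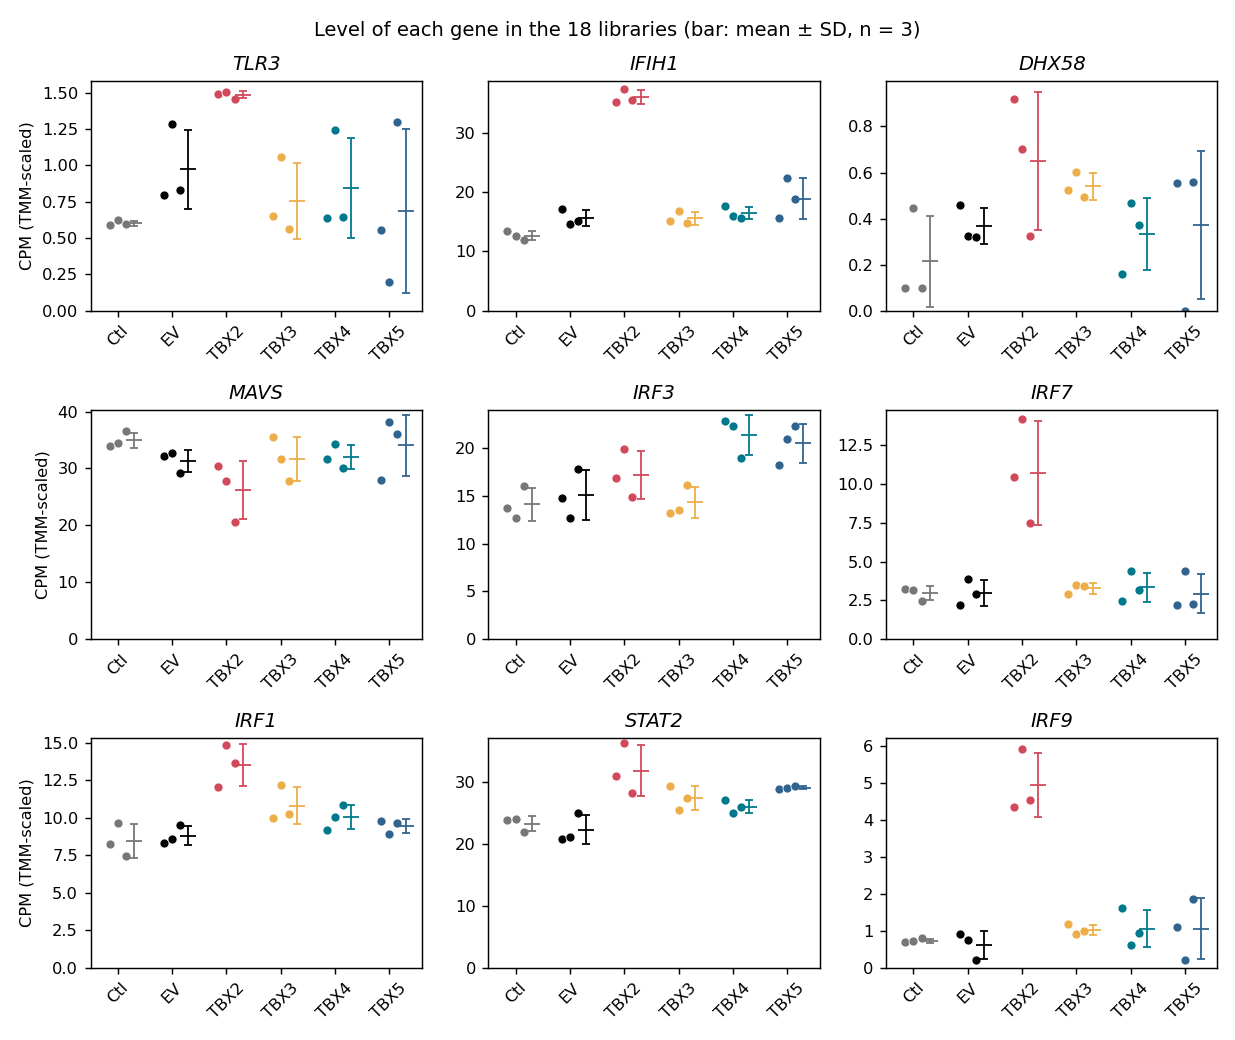
Level of the 9 genes in each of the 18 libraries, in CPM after TMM scaling on a linear axis from 0, by group. Points are libraries a, b and c from left to right, and the bar beside them is the mean ± SD (n = 3). The TBX2 libraries of IFIH1, IRF7 and IRF9 stand apart from all others, with the lowest IFIH1 value at 35.3 CPM with TBX2 and the highest elsewhere at 22.4.

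IFIH1, the cytosolic sensor, lies on chromosome 2 from 163123584 to 163175194 of GRCh37, on the minus strand. It was at 35.3, 37.5 and 35.6 CPM in TBX2 replicates a, b and c. The EV libraries held 17.1, 14.6 and 15.2 CPM and the Ctl libraries 13.5, 12.6 and 11.9. With TBX3 the values were 15.2, 16.9 and 14.8 CPM, with TBX4 17.7, 16.0 and 15.7, and with TBX5 15.6, 22.4 and 18.8. All 3 TBX2 libraries were thus above all 15 others, and the Ctl libraries were the lowest group. The log2 fold change (± SE) of IFIH1 with TBX2 was 1.22 ± 0.10 over EV and 1.51 ± 0.10 over Ctl. Over Ctl, IFIH1 also passed the test with TBX4 (0.38 ± 0.11) and TBX5 (0.54 ± 0.12), but it missed it with TBX3 (0.29 ± 0.11) and with EV (0.30 ± 0.11). Over EV, the values for TBX3, TBX4 and TBX5 were -0.01 ± 0.11, 0.08 ± 0.10 and 0.25 ± 0.11, and none passed. The IFIH1 call with TBX4 over Ctl was lost without Ctl b, Ctl c or TBX4 a, where the log2 fold change was 0.33 to 0.37, and that with TBX5 was lost without both TBX5 libraries of high ENSG00000266658 share (0.31 ± 0.14), where TBX5 a was the 1 library left and was assumed to vary like the other groups.

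The window of 250 bases before to 50 bases after the start of a gene was taken from RefSeq (GRCh38.p14) for 6 of the 9 genes, and those of DHX58, IRF3 and IRF7 were not analysed here. It was searched on both strands for the ISRE core GAAANNGAAA (TTTCNNTTTC on the other strand), the GAS core TTCNNNGAA, which reads the same on both strands, and the T-box half-site AGGTGT (or ACACCT). These letters occurred in 3.57%, 7.66% and 11.4% of 35116 promoter windows, respectively. An ISRE core was present in IFIH1 and TLR3, a GAS core in TLR3, IRF1 and IRF9, and a T-box half-site in TLR3 and STAT2. MAVS had none of the 3 motifs. A match is a run of letters only, not a bound site. The promoter of IFIH1 is shown because it carries ISRE letters and the gene was higher with TBX2, and that of TLR3 because it carries ISRE letters at the start of a gene near the floor. Capitals mark ISRE and GAS matches, and the strand is that of the gene.
IFIH1, chr2:162318666-162318873, minus strand: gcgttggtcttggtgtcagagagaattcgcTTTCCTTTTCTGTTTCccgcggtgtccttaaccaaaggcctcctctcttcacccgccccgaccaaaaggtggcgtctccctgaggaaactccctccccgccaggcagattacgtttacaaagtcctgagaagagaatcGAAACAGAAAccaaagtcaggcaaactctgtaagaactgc
TLR3, chr4:186068948-186069185, plus strand: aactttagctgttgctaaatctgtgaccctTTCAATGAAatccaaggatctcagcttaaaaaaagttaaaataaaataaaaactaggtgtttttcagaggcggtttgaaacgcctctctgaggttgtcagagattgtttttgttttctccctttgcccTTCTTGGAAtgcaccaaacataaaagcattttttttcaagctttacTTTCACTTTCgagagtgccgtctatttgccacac
In IFIH1, 2 overlapping ISRE matches ran from -159 to -150 and from -153 to -144, and another from -21 to -12, counted from the first transcribed base. In TLR3, the ISRE match lay across the start, from -4 to 6.

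TLR3, the endosomal sensor, was read at 1 to 16 counts per library, close to the floor. It lies on chromosome 4 from 186990310 to 187009227 of GRCh37, on the plus strand. The TBX2 libraries held 13, 15 and 9 counts (1.49, 1.51 and 1.46 CPM) and the EV libraries 7, 12 and 13 (0.800, 1.29 and 0.830 CPM). The Ctl libraries held 6, 7 and 6 counts (0.588, 0.621 and 0.595 CPM). In CPM, the TBX2 libraries were above the other 15. Over Ctl the log2 fold change of TLR3 with TBX2 was 1.29 ± 0.39 and passed the test, and over EV it was 0.64 ± 0.35 and did not. With TBX3, TBX4 and TBX5 the levels spread from 0.198 to 1.30 CPM, and TLR3 passed in none of their comparisons with EV or Ctl. DHX58 was read at 0 to 8 counts in the 18 libraries, with group means of 0.214 CPM in Ctl, 0.366 in EV and 0.649 with TBX2. DHX58 was not tested.

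MAVS, the adaptor below the cytosolic sensors, was the 1 member that fell. It lies on chromosome 20 from 3827481 to 3856765 of GRCh37, on the plus strand. The TBX2 libraries held 30.4, 27.8 and 20.6 CPM, the EV libraries 32.1, 32.6 and 29.2 and the Ctl libraries 33.9, 34.4 and 36.5. The TBX2 libraries were below all Ctl libraries, and TBX2 replicate a overlapped with EV. The log2 fold change with TBX2 was -0.39 ± 0.11 over Ctl, which passed the test, and -0.22 ± 0.11 over EV, which did not. With TBX3, TBX4 and TBX5 the group means of MAVS were 31.7 ± 3.84, 32.0 ± 2.14 and 34.1 ± 5.37 CPM (SD, n = 3 each), and no comparison with EV or Ctl passed.

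IRF3, the factor that the sensors activate first, moved in another pattern. It lies on chromosome 19 from 50162829 to 50169114 of GRCh37, on the minus strand, and 14.2% of its exon bases are overlapped by BCL2L12 on the other strand. Its highest levels were those of TBX4, at 22.9, 22.3 and 19.0 CPM, and TBX5, at 18.3, 21.0 and 22.3. The TBX2 libraries held 16.9, 19.9 and 14.9 CPM and the TBX3 libraries 13.2, 13.6 and 16.2. EV stood at 14.9, 12.7 and 17.8 CPM and Ctl at 13.7, 12.7 and 16.1. All TBX4 and TBX5 libraries lay above all EV, Ctl and TBX3 libraries, whereas the TBX2 libraries overlapped with EV and Ctl. Of all genes, 11.8% lay wholly above EV with TBX4 and 12.4% with TBX5, and 13.4% and 12.8% wholly above Ctl. The log2 fold change of IRF3 was 0.48 ± 0.12 with TBX4 and 0.40 ± 0.13 with TBX5 over EV, and 0.60 ± 0.12 and 0.52 ± 0.14 over Ctl. With TBX2 it was 0.18 ± 0.13 over EV, which did not pass, and 0.31 ± 0.13 over Ctl, which did. With TBX3 it was -0.08 ± 0.13 over EV and 0.05 ± 0.13 over Ctl. The calls of IRF3 over EV rested on single libraries. With TBX4 the call was lost without EV b or TBX4 a (0.37 to 0.43), and with TBX5 without EV a, EV b, TBX5 b or TBX5 c (0.29 to 0.38). With both TBX5 libraries of high ENSG00000266658 share left out, so that TBX5 a was the 1 library left, the IRF3 value with TBX5 was 0.25 ± 0.18 over EV and 0.38 ± 0.18 over Ctl, and neither passed. The IRF3 call with TBX2 over Ctl was lost on leaving out any 1 of 10 libraries (0.18 to 0.33), namely Ctl a, Ctl b, EV a, TBX2 a, TBX2 b, TBX3 a, TBX3 b, TBX4 a, TBX4 b or TBX5 b, which change the shared spread also where they are not compared. Scaled by library totals, the IRF3 value with TBX5 over EV was -0.023, where the median over all genes was -0.405. The IRF3 call with TBX4 over Ctl was kept on leaving out each library and in all other settings (0.47 to 0.97).

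IRF7, which carries the later wave of interferon induction, rose with TBX2 and passed the test with no other plasmid. It lies on chromosome 11 from 612555 to 615950 of GRCh37, on the minus strand. TBX2 replicates a, b and c held 10.5, 14.2 and 7.47 CPM, from 91, 141 and 46 counts. The EV libraries held 2.17, 3.86 and 2.94 CPM and the Ctl libraries 3.24, 3.20 and 2.48. All of the 15 libraries without the TBX2 plasmid lay between 2.17 and 4.37 CPM, below the lowest TBX2 library. The log2 fold change of IRF7 with TBX2 was 1.88 ± 0.22 over EV and 1.89 ± 0.23 over Ctl, a 3.68-fold and a 3.70-fold change. With TBX3, TBX4 and TBX5 the values over EV were 0.14 ± 0.28, 0.16 ± 0.26 and -0.10 ± 0.32, and EV against Ctl gave 0.01 ± 0.28.

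IRF1 rose 1.52-fold with TBX2 over EV. It lies on chromosome 5 from 131817301 to 131826465 of GRCh37, on the minus strand, and 16.3% of its exon bases are overlapped by genes on the other strand, IRF1-AS1 among them. The TBX2 libraries held 12.1, 14.9 and 13.6 CPM, above all EV libraries at 8.34, 8.59 and 9.51 and all Ctl libraries at 8.24, 9.68 and 7.44. TBX3 followed at 9.96, 12.2 and 10.3 CPM, with its highest library above the lowest of TBX2. TBX4 was at 9.21, 10.0 and 10.8 CPM and TBX5 at 9.76, 8.93 and 9.68. The log2 fold change of IRF1 with TBX2 was 0.61 ± 0.12 over EV and 0.68 ± 0.12 over Ctl. With TBX3 it was 0.26 ± 0.13 and 0.33 ± 0.13, with all 3 libraries above all of EV and of Ctl, but neither passed the test. Of all genes, 13.7% and 13.9% had all TBX3 libraries above those of EV and of Ctl, respectively. With TBX4 and TBX5 the values were 0.09 to 0.24, and none passed.

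STAT2, the ISGF3 subunit that carries the activation domain, showed a small rise with several plasmids. It lies on chromosome 12 from 56735381 to 56753891 of GRCh37, on the minus strand. The TBX2 libraries held 30.9, 36.2 and 28.1 CPM, the TBX5 libraries 28.7, 29.0 and 29.2, the TBX3 libraries 29.4, 25.3 and 27.4 and the TBX4 libraries 27.0, 24.99 and 25.9. EV was at 20.8, 21.0 and 24.9 CPM and Ctl at 23.8, 24.0 and 21.9. In each of the 4 TBX groups, all 3 STAT2 values lay above all 6 values of EV and Ctl. With TBX4 the margin was small, at 24.99 CPM against 24.89 in the highest EV library. In the single comparisons with EV or Ctl, 11.8% to 18.3% of all genes had all TBX libraries higher. The share that lay above EV and Ctl together was not counted. Over EV the log2 fold changes of STAT2 were 0.51 ± 0.09 (TBX2), 0.28 ± 0.09 (TBX3), 0.21 ± 0.09 (TBX4) and 0.36 ± 0.10 (TBX5), of which that of TBX4 did not pass. Over Ctl they were 0.46 ± 0.09, 0.24 ± 0.09, 0.16 ± 0.09 and 0.32 ± 0.10, and TBX2 and TBX5 passed. The STAT2 call with TBX3 over EV was lost without EV a, EV b, TBX3 a or TBX3 c (0.24 to 0.29), and that with TBX5 over Ctl without Ctl c, TBX5 b or TBX5 c (0.28 to 0.32). Scaled by library totals, the STAT2 value with TBX5 over EV was -0.0468, where the median over all genes was -0.405.

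IRF9, the DNA-binding subunit of ISGF3, was low in every group except TBX2. The TBX2 libraries held 38, 59 and 28 counts (4.36, 5.94 and 4.55 CPM). Ctl had 7, 8 and 8 counts, EV 8, 7 and 3, TBX3 9, 6 and 14, TBX4 20, 8 and 10 and TBX5 10, 1 and 10. In CPM, the 15 libraries without the TBX2 plasmid reached at most 1.86, so that no TBX2 library overlapped with them. The log2 fold change of IRF9 with TBX2 was 3.19 ± 0.37 over EV and 2.76 ± 0.35 over Ctl, a 9.11-fold and a 6.77-fold change, and the low counts of EV and Ctl limit how precisely these folds are known. Over EV the values were 0.90 ± 0.50 with TBX3, 0.95 ± 0.48 with TBX4 and 0.99 ± 0.55 with TBX5, and none passed.

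IRF9 lies on chromosome 14 from 24630474 to 24635774 of GRCh37, on the plus strand, and 93.1% of its exon bases are overlapped by other genes of the annotation. One of them, ENSG00000259529, is on the same strand. Reads shared by overlapping genes are left out at the default settings of the counting tool, so that the level of IRF9 is an undercount where the authors' annotation had this overlap. ENSG00000259529, looked up after the values of IRF9 were seen, held 22, 26 and 11 counts with TBX2, 1 to 6 in Ctl and EV, 2 to 9 with TBX3, 4 to 17 with TBX4 and 4 to 8 with TBX5. Its counts were therefore also highest with TBX2, with an overlap with TBX4. Reads that fall where exons of the 2 genes overlap could not be told apart. The GAS letters in the windows of IRF1 (from -124 to -116) and IRF9 (from -63 to -55) are shown because both genes rose with TBX2. Capitals mark the GAS match.
IRF1, chr5:132490859-132490927, minus strand: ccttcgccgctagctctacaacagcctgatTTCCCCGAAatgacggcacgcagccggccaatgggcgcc
IRF9, chr14:24161172-24161240, plus strand: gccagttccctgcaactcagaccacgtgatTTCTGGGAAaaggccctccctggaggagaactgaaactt
These coordinates are those of GRCh38.p14. The gene positions and exon overlaps in GRCh37 come from a GENCODE annotation other than the one used for counting. It holds 55665 of the 63677 identifiers in the count table.

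**Figure D2:**
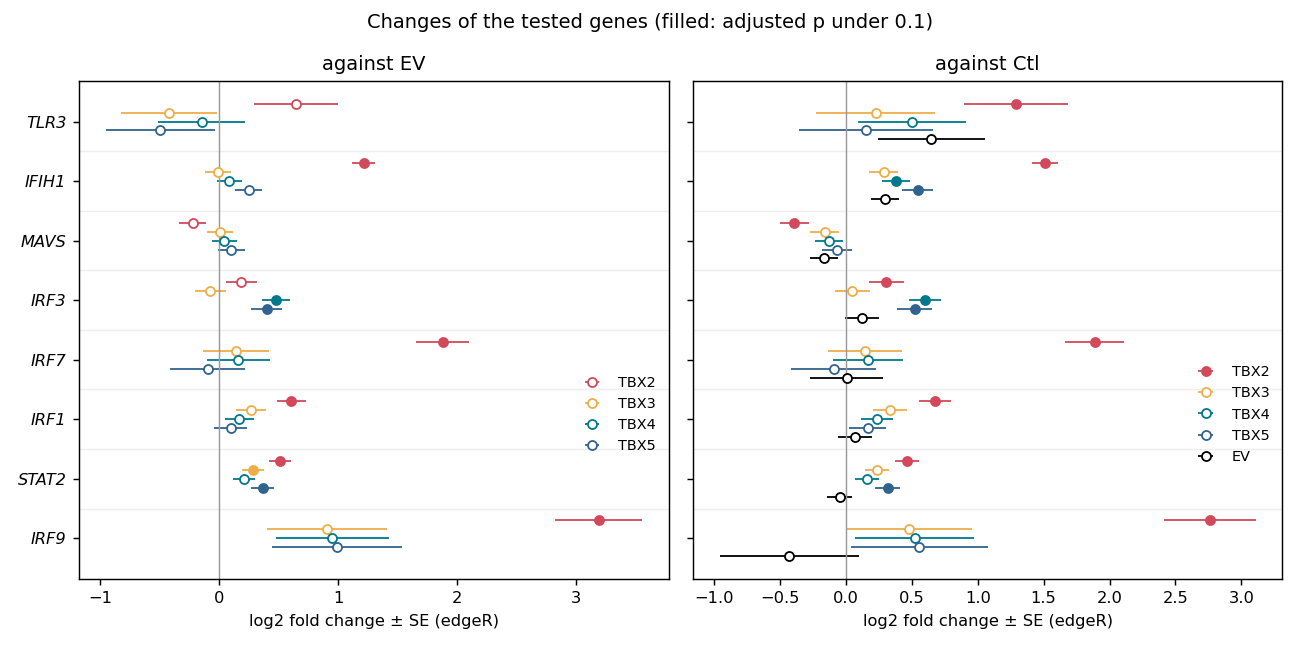
Log2 fold change (± SE, edgeR) of the 8 tested genes with each TBX plasmid against EV (left) and against Ctl (right, with EV against Ctl in black). Filled points passed an adjusted p of 0.1 over all genes. TBX2 is filled for 5 genes against EV and for all 8 against Ctl, and the values of IRF9 reach 3.19 and 2.76.

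Each count was set beside the share of all tested genes that passed in the same direction. TBX2 raised 5 of the 8 members over EV and lowered 0, where 14.7% of all genes were higher and 13.4% lower. Over Ctl it raised 7 and lowered MAVS, where 15.3% of all genes were higher and 13.4% lower. By DESeq2, which gave no adjusted p for some low genes, 5 members passed with TBX2 over EV and 6 over Ctl. The median log2 fold change of the members with TBX2 was 0.62 over EV and 0.98 over Ctl, with a median over all genes of 0.01 and 0.00. The libraries of TBX2 and EV did not overlap for 6 of the 8 members, all higher with TBX2, against 17.7% of all genes. When libraries were scaled by their totals instead of TMM, IFIH1, IRF7 and IRF9 still passed with TBX2 over EV and Ctl, whereas IRF1 and STAT2 over EV, and TLR3, MAVS, IRF3, IRF1 and STAT2 over Ctl, did not. These shares of all genes are given for reference, since the members were chosen with such results known.

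TBX3 raised 1 member over EV, STAT2, and lowered 0, where 5.78% of all genes were higher and 4.13% lower. Over Ctl it raised or lowered 0 members in edgeR's quasi-likelihood test, with 3 at an unadjusted p under 0.05 and 0 by DESeq2, where 6.66% of all genes were higher and 4.15% lower. TBX4 raised 1 member over EV, IRF3 (3.83% of all genes higher and 2.63% lower), and 2 over Ctl, IFIH1 and IRF3 (5.68% higher and 4.03% lower). TBX5 raised 2 over EV, IRF3 and STAT2 (5.26% higher and 4.96% lower), and 3 over Ctl, IFIH1, IRF3 and STAT2 (5.70% higher and 4.37% lower). Neither TBX4 nor TBX5 lowered a member. In EV against Ctl, 0 members passed in edgeR's test, 1 had an unadjusted p under 0.05 (IFIH1) and DESeq2 gave 0, where 0.135% of all genes were higher and 0.0514% lower. The 4 comparisons with EV share the EV libraries and those with Ctl the Ctl libraries, so that their values for a gene are not independent. The member medians over EV were 0.07 with TBX3, 0.16 with TBX4 and 0.17 with TBX5.

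The differences between plasmids were tested directly in the same fit. IFIH1, IRF7, IRF1 and IRF9 were higher with TBX2 than with each of the other 3 TBXs. For IRF1 the TBX2 and TBX3 libraries overlapped, and the call between them was lost in 9 of 28 settings. Among these were DESeq2 (0.34), no filter (0.32) and the fit of 2 groups (0.35). For IRF9 the log2 difference from the other TBXs was 2.20 to 2.28, for IRF7 1.72 to 1.98, for IFIH1 0.97 to 1.23 and for IRF1 0.34 to 0.51. In TBX2 against TBX3, 5 members passed, the fifth being TLR3, where 15.5% of all genes passed in either direction. In TBX2 against TBX4, 5 passed, with STAT2 as the fifth (12.3% of all genes), and in TBX2 against TBX5, 4 (12.1%). IRF3 was lower with TBX3 than with TBX4 (-0.55 ± 0.12) and TBX5 (-0.47 ± 0.14), and these were the only members past the threshold in TBX3 against TBX4 (9.97% of all genes) and TBX3 against TBX5 (7.41%). TBX4 against TBX5 gave 0 members in edgeR's test, 0 at an unadjusted p under 0.05 and 0 by DESeq2, where 0.539% of all genes passed.

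Over the 18 libraries, the log2 levels of IFIH1, IRF7, IRF1, STAT2 and IRF9 correlated with each other (Pearson's r of 0.57 to 0.84 over the 10 pairs), which describes mainly the TBX2 libraries. Within groups, after the group means were removed, the 10 values ran from -0.55 to 0.29, 5 above and 5 below 0. The genes whose log2 levels were most like each member over the 18 libraries were found for all tested genes with a symbol. For IFIH1 these were DDX60 (r of 0.96), an interferon-induced helicase, and DNM3 (0.95). For IRF7 they were TBX2 itself (0.90), which is set by the plasmid, and USP18 (0.90), a protease that removes ISG15. IRF9 was most like AK8 (0.90) and REC8 (0.86), IRF1 like ZFP69B (0.91) and RC3H2 (0.89) and STAT2 like PEX19 (0.87) and ZNF594 (0.87). IRF3 was most like ZNF75D (0.88) and CALB2 (0.88), MAVS like SAMD10 (0.88) and NUMA1 (0.88) and TLR3 like CTF1 (0.82) and ADH6 (0.82). The libraries share plasmid group and depth, and no test was made of these values.

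The other genes of the pathway were followed in 6 lists of 114 genes, of which 77 passed the filter. The lists were also chosen with earlier results of these data known. The genes named from them are those that passed in the most comparisons. Their changes and p-values are therefore a description of the fit, not independent evidence. With TBX2 over EV, 35 rose and 5 fell, and with TBX3, TBX4 and TBX5 over EV 8, 3 and 5 rose and 0, 2 and 0 fell. Of all genes, 14.7%, 5.78%, 3.83% and 5.26% were higher with TBX2, TBX3, TBX4 and TBX5 over EV and 13.4%, 4.13%, 2.63% and 4.96% lower. The median log2 fold change over the 77 genes was 0.18 (TBX2), 0.05 (TBX3), -0.01 (TBX4) and 0.02 (TBX5). The 7 interferon genes of the lists, IFNB1, IFNE, IFNK, IFNG, IL29, IL28A and IL28B, were all below the filter, with at most 3 counts in a library except for IFNE with at most 8.

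**Figure D3:**
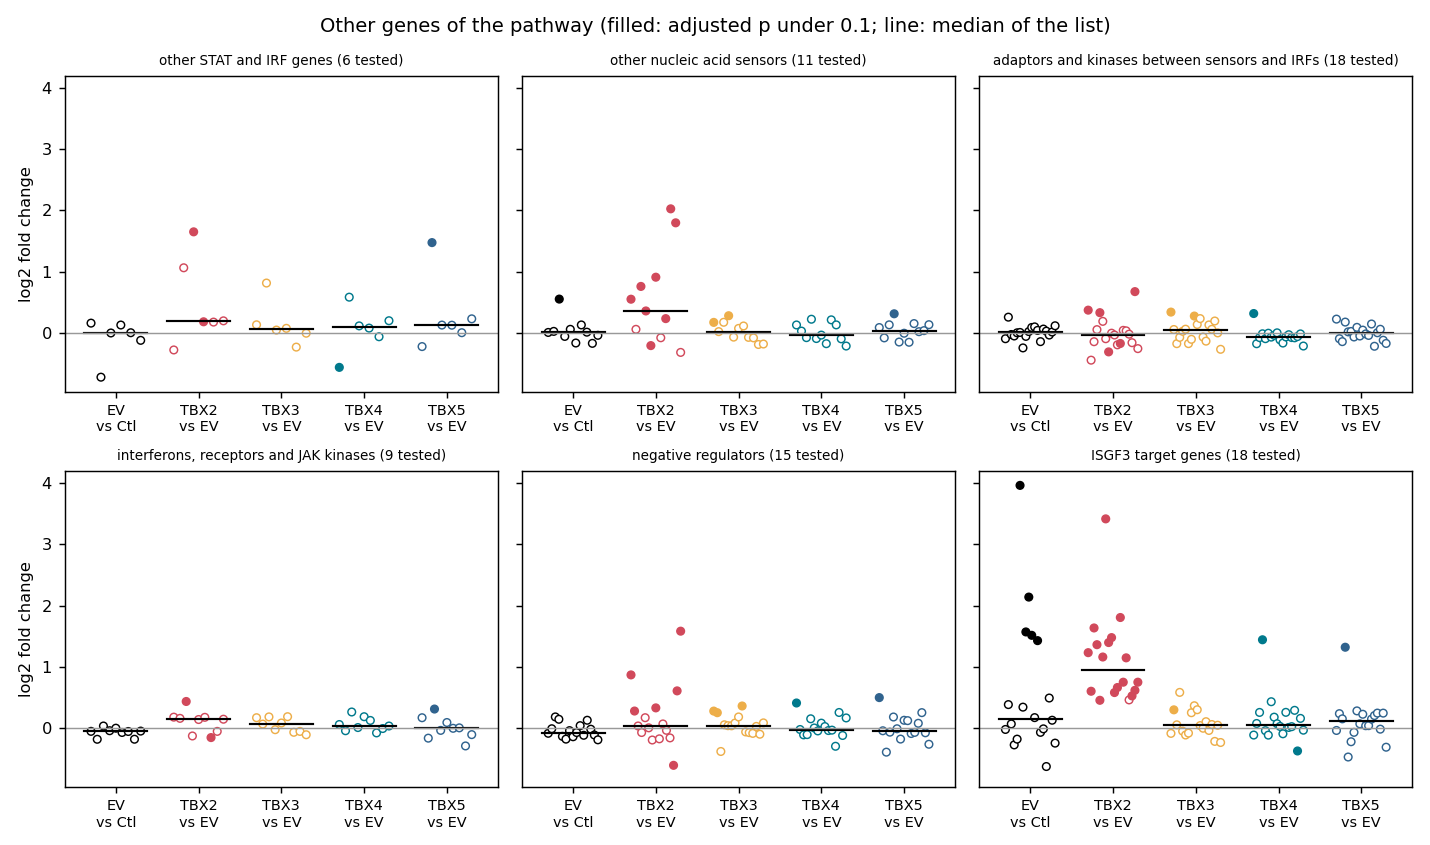
Log2 fold change of the other pathway genes in 6 lists, for EV against Ctl and for each TBX against EV. Each point is a gene, filled where the adjusted p was under 0.1, and the line is the median of the list over all tested genes. OASL is left out of EV against Ctl because its Ctl libraries are at 0. The ISGF3 targets are filled for 17 of 18 genes with TBX2 and for 5 of 18 in EV against Ctl.

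Among the other STAT and IRF genes, STAT3, which responds mainly to cytokines of the IL-6 type, rose by 0.18 ± 0.07 with TBX2 over EV (adjusted p = 0.0740, edgeR). IRF2, which competes with IRF1 for DNA, fell by 0.56 with TBX4 over EV (adjusted p = 0.0441, edgeR). IRF5 rose with TBX5 over EV (1.47 ± 0.49, adjusted p = 0.0680, edgeR) from 2 to 8 counts in the EV libraries to 7 to 10. The Ctl libraries held 4 to 12 counts of IRF5. IRF2 and IRF5 each passed in only 1 of the 9 comparisons, so that neither passed over Ctl.

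The targets of ISGF3 were the list with the most changes. With TBX2 over EV, 17 of 18 tested genes rose, 0 fell and the median was 0.95. With TBX3, TBX4 and TBX5 over EV, 1 rose in each and 0, 1 and 0 fell. Of all genes, 14.7%, 5.78%, 3.83% and 5.26% were higher over EV with TBX2, TBX3, TBX4 and TBX5. In the same order, 13.4%, 4.13%, 2.63% and 4.96% were lower. ISG15, a ubiquitin-like protein, went from 11.8 ± 1.30 CPM in EV to 41.2 ± 4.03 with TBX2 (SD, n = 3 each), a log2 fold change of 1.805 ± 0.11 (adjusted p = 1.05e-12, edgeR). IFIT1 and IFIT2, which bind viral RNA or restrict its translation, changed by 1.40 ± 0.16 and 1.48 ± 0.16, and IFI44 by 1.16 ± 0.21 over EV.

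Some of these targets were higher in EV than in Ctl, where no member passed. Of the 18 ISGF3 targets, 5 rose in EV against Ctl and 0 fell, beside 0.135% of all genes higher and 0.0514% lower. The treatment of Ctl is not named, and the cause of this difference was not tested. ISG15 was at 4.40 ± 0.674 CPM in Ctl and IFIT2 at 1.90 ± 0.099 (SD, n = 3 each), and their log2 fold changes in EV were 1.43 ± 0.15 and 2.14 ± 0.24 (adjusted p = 3e-06 and 3.69e-06, edgeR). IFIT1 changed by 1.57 ± 0.23. IFI44 had 0 to 4 counts in Ctl and 28 to 47 in EV. Over Ctl, 16, 6, 8 and 8 of the 18 targets rose and 0, 0, 0 and 1 fell with TBX2, TBX3, TBX4 and TBX5, respectively. Of all genes, 15.3%, 6.66%, 5.68% and 5.7% were higher over Ctl and 13.4%, 4.15%, 4.03% and 4.37% lower, in the same order.

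Among the other nucleic acid sensors, 7 of 11 tested rose with TBX2 over EV and 1 fell, with a median of 0.36. Of all genes, 14.7% were higher and 13.4% lower there. DDX58, the gene of the cytosolic sensor RIG-I, stood at 14.0 ± 1.10 CPM in Ctl, 20.5 ± 1.94 in EV and 34.8 ± 1.46 with TBX2 (SD, n = 3 each). Its log2 fold change was 0.76 ± 0.09 with TBX2 over EV (adjusted p = 2.01e-07, edgeR) and 0.55 ± 0.09 in EV over Ctl (adjusted p = 0.00261, edgeR). OASL, which enhances RIG-I signaling, had 0 counts in all 3 Ctl libraries, 4 to 13 in EV and 15 to 32 with TBX2. Against the floor of 3 counts per Ctl library, OASL was at least 2.80-fold higher in EV and at least 9.67-fold higher with TBX2. OASL only just passed the filter, and would not have passed without the TBX2 libraries, where it was highest. Its place among the sensors that rose with TBX2 therefore rests partly on that filter. ADAR, which edits double-stranded RNA, rose by 0.55 ± 0.06 with TBX2 and by 0.17 ± 0.06 with TBX3 over EV (adjusted p = 7.91e-08 and 0.0804, edgeR). DHX36, a helicase that also binds RNA in the cytosol, rose with TBX2, TBX3 and TBX5 over EV by 0.36 ± 0.09, 0.28 ± 0.09 and 0.31 ± 0.09.

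Of the 18 tested adaptors and kinases between sensors and IRFs, 3 rose and 2 fell with TBX2 over EV, with a median of -0.03, beside 14.7% of all genes higher and 13.4% lower. TRIM25, the ubiquitin ligase of RIG-I, rose by 0.67 ± 0.07 (adjusted p = 8.54e-08, edgeR) and AZI2, an adaptor of TBK1, by 0.37 ± 0.11, whereas TANK, another adaptor of TBK1, fell by 0.31 (adjusted p = 0.00893, edgeR). AZI2 also rose over EV with TBX3 (0.34 ± 0.11) and TBX4 (0.32 ± 0.11). IRAK1, a kinase of the TLR route, passed only over Ctl, where it fell by 0.17 with TBX2 and by 0.20 with TBX3. Of the 9 tested receptor and JAK genes, 1 rose and 1 fell with TBX2 over EV, beside the same 14.7% and 13.4% of all genes. IFNGR1, a chain of the interferon gamma receptor, rose by 0.43 ± 0.10, and JAK1 fell by 0.15. IFNGR1 also passed with TBX5 over EV (0.31 ± 0.11) and over Ctl (0.35 ± 0.11), and with TBX4 over Ctl (0.30 ± 0.10). In TBX2 against TBX3, TBX4 and TBX5 its difference was 0.25 ± 0.10, 0.17 ± 0.10 and 0.12 ± 0.11, and none passed. JAK2 fell with TBX5 over Ctl by 0.47 (adjusted p = 0.0150, edgeR).

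Of the 15 tested negative regulators, 5 rose and 1 fell with TBX2 over EV, with a median of 0.04. Of all genes, 14.7% were higher and 13.4% lower there. USP18, which also damps the interferon receptor, went from 3.05 ± 0.136 CPM in EV to 9.03 ± 0.635 with TBX2 (SD, n = 3 each; adjusted p = 1.23e-07, edgeR). SOCS3, an inhibitor of JAK kinases, fell by 0.61 (adjusted p = 0.00403, edgeR). CYLD, a deubiquitinase that restrains RIG-I, was higher over EV with all 4 plasmids, by 0.87 ± 0.09 (TBX2), 0.28 ± 0.09 (TBX3), 0.41 ± 0.09 (TBX4) and 0.50 ± 0.09 (TBX5). DUSP3, a phosphatase that acts on STAT5, rose with TBX2 (0.28 ± 0.08) and TBX3 (0.25 ± 0.08).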

How the data were processed

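Paired-end reads were aligned by the authors to GRCh37 with STAR 2.3.0 (version per the submitters' processing notes) and summed over Ensembl genes by featureCounts (defaults). The deposited values are raw read counts per gene, with no normalization. Groups and replicate letters were taken from the sample titles. Symbols and positions came from a GENCODE annotation of GRCh37, and all 114 list genes were matched. The 9 members and the lists were chosen with earlier results of these data known.

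One edgeR 4.0.16 quasi-likelihood fit (R 4.3.3) covered all 18 libraries in 6 groups, with TMM scaling, genes with more than 5 counts in more than 9 libraries, and Benjamini-Hochberg adjustment over all 15576 tested genes. An adjusted p under 0.1 was called. The 9 comparisons (each TBX against EV and against Ctl, EV against Ctl) and the 6 TBX pairs were contrasts of it. The SE was obtained by dividing each absolute log2 fold change by the root of its F statistic. A deposited total of 7365221 to 11743179 counts per library sets the precision, and intervals from it would cover counting error only. Named list genes are up to 4 per list, those that passed in the most of the 9 comparisons, with ties broken by the larger mean absolute change, of which 1 is not reported here. For each member the 2 genes with the highest correlation were named. The scripts were tested on simulated data. Alternatives were DESeq2 1.42.0, DESeq2 size factors, library totals, other filters, fits of 2 groups, the replicate letter as a block, an FDR of 0.05 and each library left out. The share of ENSG00000266658 as a covariate and the removal of both TBX5 libraries of high share were chosen after seeing the data.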

Additional observations from a re-analysis of the deposited data

Results flagged for a closer look

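Differences between plasmids in the same fit drew attention because the test of the difference itself passed. The log2 difference of TBX2 from TBX3 was 2.28 for IRF9, 1.74 for IRF7, 1.23 for IFIH1, 1.07 for TLR3 and 0.34 for IRF1. From TBX4 it was 2.24 for IRF9, 1.72 for IRF7, 1.13 for IFIH1, 0.44 for IRF1 and 0.30 for STAT2. From TBX5 it was 2.20 for IRF9, 1.98 for IRF7, 0.97 for IFIH1 and 0.51 for IRF1. IRF3 was lower with TBX3 than with TBX4 (-0.55) and with TBX5 (-0.47). Of these differences, TLR3 in TBX2 against TBX3 was lost without any 1 of TBX2 a, TBX2 b, TBX2 c, TBX3 a or TBX3 c (0.81 to 1.08), and IRF1 in TBX2 against TBX3 without TBX2 b, TBX2 c, TBX3 a or TBX3 c (0.25 to 0.34). Without TBX2 b, IRF1 in TBX2 against TBX4 was at 0.35 and missed the threshold, and STAT2 in TBX2 against TBX4 did so without TBX2 b or TBX4 b (0.19 to 0.28). IRF3 in TBX3 against TBX5 was lost without TBX3 a, TBX3 b, TBX5 b or TBX5 c (-0.45 to -0.41).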

How the results depend on the processing

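Of the 38 member differences that passed, 15 were kept in every setting that gave them a value, among them those of IRF7 and IRF9 with TBX2 over EV, Ctl and each other TBX. IRF9 and TLR3 had no value with at least 10 counts in every library, since they were then filtered out. DESeq2 gave no adjusted p for some low genes, IRF9 in TBX2 against TBX4 among them, which were left out of its counts. Scaling by library totals shifted the median of all genes by up to -0.41 (TBX5 against EV) and 0.36 (TBX4 against Ctl), and under it IRF3 and STAT2 with TBX5 over EV were at -0.023 and -0.0468. It also changed the sign of 21 of the 82 member values that did not pass, and the other settings together made 62 such changes.

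By library totals, 3, 0, 0 and 0 members passed with TBX2, TBX3, TBX4 and TBX5 over EV, 3, 1 and 0 with TBX2, TBX4 and TBX5 over Ctl, 3 and 2 in TBX2 against TBX3 and TBX4, 0 and 0 in TBX3 against TBX4 and TBX5, and 3 in TBX4 against TBX5. Of the list genes, 12, 0, 1 and 0 passed with TBX2, TBX3, TBX4 and TBX5 over EV and 22, 6 and 6 with TBX2, TBX3 and TBX5 over Ctl. For the members in TBX3 over EV, DESeq2, no filter and an FDR of 0.05 each gave 0, and in TBX2 against TBX3 each gave 3. The FDR of 0.05 gave 1 member with TBX5 over EV. With at least 10 counts in every library, 2 members passed with TBX3 over Ctl. Of the list genes over EV, DESeq2 gave 4, 3 and 3 for TBX3, TBX4 and TBX5, an FDR of 0.05 gave 2, 3 and 3, no filter gave 2 for TBX3, the strict filter gave 3 for TBX5 and the fit of 2 groups gave 8 for TBX4. No filter and an FDR of 0.05 each gave 9 list genes with TBX3 over Ctl. With the share of ENSG00000266658 as a covariate, 1 member passed with TBX3 over Ctl. Without both TBX5 libraries of high share, the TBX5 group was 1 library (a), assumed to vary like the other groups. There, 0 members passed with TBX5 over EV, 0 over Ctl and 0 in TBX3 against TBX5, 1 with TBX3 over Ctl, and 2 list genes with TBX5 over EV.

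On leaving out 1 library at a time, the members that passed over EV were 5 to 6 with TBX2, 0 to 1 with TBX3, 0 to 1 with TBX4 and 1 to 3 with TBX5. Over Ctl they were 7 to 8, 0 to 1, 1 to 2 and 2 to 3. In the pairs they were 3 to 5 (TBX2 against TBX3), 4 to 6 (TBX4), 4 to 5 (TBX5) and 0 to 2 (TBX3 against TBX5). The list genes that passed over EV were 34 to 41, 1 to 8, 2 to 6 and 1 to 5, and over Ctl 33 to 40, 9 to 17, 11 to 15 and 11 to 17. The lowest counts over EV came without EV b for TBX3 (1), TBX4 b (2) and EV c for TBX5 (1).

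Libraries with the same letter did not deviate together (mean correlation of deviations from the group means 0.00155, against -0.000747 for different letters), so that the letters were not taken to pair libraries. With the replicate block, 5, 1, 1 and 2 members passed over EV and 8, 0, 2 and 3 over Ctl. TBX2 against TBX5 gave 5, where MAVS was also past the threshold. Depth limits TLR3, DHX58 and IRF9 in the groups where they were read at few counts.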
